A study of Mus musculus with 26 samples.

Results

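The clustered histone genes are the genes of the histone clusters, taken here as every gene whose symbol begins with Hist1h, Hist2h, Hist3h or Hist4h, without 1 pseudogene. This gave 68 of the 24848 genes in the tables, of which, by symbol, 6 are H1, 19 H2A, 18 H2B, 12 H3 and 13 H4 genes. GENCODE annotates 1 of them, the H2A gene Hist1h2al, as a processed pseudogene. By the GENCODE annotation of GRCm38 (mm10), 55 of them lie on chromosome 13, 10 on chromosome 3, 2 on chromosome 11 and 1 on chromosome 6. They were followed in CD4+ regulatory T cells (Treg, CD4+Foxp3+) and conventional CD4+ T cells (Tconv) taken at day 14 of active experimental autoimmune encephalomyelitis (EAE), an inflammatory disease of the central nervous system in mice. The mice were C57BL/6 and all received tamoxifen from day 7 to day 14. The icKO mice carried Foxp3Cre-ERT2 together with Tnfrsf1bFlox/Flox, which removes Tnfrsf1b, the gene that encodes TNFR2, a receptor for TNF, from cells that express Foxp3, and the Ctrl mice carried Foxp3Cre-ERT2 alone. Because the Foxp3 gene drives the inducible Cre, Tconv of icKO mice are not themselves targeted. Cells were sorted from the central nervous system, CNS, and from draining lymph nodes, dLN, which gave 8 groups: Treg from the CNS of icKO (3 libraries) and Ctrl mice (3), Treg from dLN of icKO (3) and Ctrl mice (3), Tconv from the CNS of icKO (4) and Ctrl mice (4), and Tconv from dLN of icKO (3) and Ctrl mice (3). The labels give no age of the mice.

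Histones package DNA. H2A, H2B, H3 and H4 form the core particle around which DNA winds, and H1, the linker histone, binds where DNA enters and leaves it. The clustered genes are the main source of new histones while a cell copies its DNA, and most of their mRNA is made during S phase and lost when replication ends. These mRNAs are the best known animal mRNAs without a poly(A) tail: they end shortly after a conserved stem-loop that the stem-loop binding protein (Slbp) holds. Some clustered genes also yield longer, polyadenylated transcripts, often in cells that no longer divide. The libraries here were made from polyadenylated RNA. The values below thus describe what this priming captured, within the transcripts assumed for counting, and not the whole histone mRNA of the cells.

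The stem-loop is shown for 6 genes that carry the results below, because their levels moved in different directions while this element hardly differs between them. The consensus of the histone stem-loop was searched on the transcript strand of every GENCODE transcript. The match with the most bases after it was kept for each gene. It was held by 44 of 68 genes (4 of 6 H1, 11 of 19 H2A, 10 of 18 H2B, 9 of 12 H3 and 10 of 13 H4). Each line gives 30 bases, 5′ to 3′, with the 16 bases of the stem-loop in capitals.
Hist1h1e: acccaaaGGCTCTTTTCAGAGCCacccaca
Hist1h1c: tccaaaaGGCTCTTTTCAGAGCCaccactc
Hist1h2ae: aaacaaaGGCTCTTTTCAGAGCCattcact
Hist3h2a: caccaaaGGCTCTTTTCAGAGCCacccaca
Hist1h4d: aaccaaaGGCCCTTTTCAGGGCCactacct
Hist1h4c: aacaaaaGGCCCTTTTCAGGGCCacccaca
All 4 of the H1 and H2A genes shown share the same 16 bases, and in the H4 genes shown a base pair of the stem differs from these. There were 7 variants of the element among the 44 genes, the commonest being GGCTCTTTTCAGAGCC, and each of the 10 H4 genes had a variant that begins GGCCC. The annotated transcript went on for over 100 bases after the stem-loop in 22 genes: for 1153 bases in Hist1h1e (chr13:23620629-23622558, minus strand), 840 in Hist1h1c (chr13:23738808-23740367, plus strand), 1643 in Hist3h2a (chr11:58954685-58956830, plus strand), 770 in Hist1h4d (chr13:23581598-23582735, plus strand) and 151 in Hist1h2ae (chr13:23570517-23571220, minus strand). The polyadenylation signal AATAAA lay in that stretch in 13 genes, among them Hist1h1c, Hist1h2ae and Hist3h2a. Of the 20 genes in the plots of fold changes there was no match in Hist1h1a, Hist1h1b, Hist1h2ak, Hist1h2bc, Hist1h3i, Hist2h2bb or Hist2h2be, which says only that the consensus is not in their annotated transcripts.

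Promoters are shown for Hist1h2ae and Hist3h2a, both H2A genes, since these differed in opposite directions between tissues in Treg and between cell types in dLN. The 300 bases run from 250 before to 50 after the start given by RefSeq on GRCm38.p6, which held 61 of the 68 genes. Capitals mark the octamer (ATTTGCAT or ATGCAAAT), the CCAAT box (CCAAT or ATTGG) and the TATA box (TATAAA or TTTATA), searched on both strands, and none of the 3 motifs contains another.
Hist1h2ae: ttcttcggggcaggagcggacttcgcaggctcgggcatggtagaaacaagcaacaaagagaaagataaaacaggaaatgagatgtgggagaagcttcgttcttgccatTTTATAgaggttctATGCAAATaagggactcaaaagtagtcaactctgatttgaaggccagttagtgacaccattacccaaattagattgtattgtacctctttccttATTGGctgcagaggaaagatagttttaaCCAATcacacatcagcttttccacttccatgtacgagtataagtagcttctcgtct
Hist3h2a: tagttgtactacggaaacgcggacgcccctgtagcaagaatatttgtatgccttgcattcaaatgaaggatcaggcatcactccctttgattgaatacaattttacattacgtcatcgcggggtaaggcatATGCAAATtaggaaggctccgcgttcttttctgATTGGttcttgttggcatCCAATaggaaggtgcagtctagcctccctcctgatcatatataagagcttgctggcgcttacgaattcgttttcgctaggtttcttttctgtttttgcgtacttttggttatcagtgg
These windows lie at chr13:23571171-23571470 (minus strand) and chr11:58954435-58954734 (plus strand). Both hold the octamer and a pair of CCAAT boxes, and TATAAA or TTTATA is in the Hist1h2ae window alone, where it reads TATAAA on the strand of the divergent neighbour Hist1h2bg and lies in that gene's window as well. Only these exact letters were searched. Related stretches, such as tatataag in the Hist3h2a window, were not marked, so the search does not show that Hist3h2a lacks a TATA box. The octamer was in 7 of 17 H2A and 6 of 16 H2B promoters and in none of the H1, H3 or H4 promoters, against 1.74% of 32851 RefSeq promoters of the same length. Windows of divergent neighbours overlap, and in 3 pairs (Hist1h2ae with Hist1h2bg, Hist1h2aa with Hist1h2ba and Hist1h2ah with Hist1h2bk) a single octamer was counted for both genes. A CCAAT box was in all 6 H1, all 17 H2A, all 16 H2B and all 10 H3 promoters and in 3 of 12 H4 promoters, against 37.4% of all promoters. Start sites of 26 of the genes form 13 divergent pairs within 1000 bases, of which 12 join an H2A to an H2B gene. In one of these pairs, Hist1h2ae averaged 100 TPM (transcript abundance scaled to length and to the library) over the libraries and its neighbour Hist1h2bg 6.47 TPM, with 175 bases between their starts.

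The 25 libraries analysed held 12.4 to 18.5 M counts (median 14.4 M). The library labelled dLN Tconv icKO replicate 3 stood apart, with 7.78 M counts, 6005 genes above 0 (11089 to 14259 in the others) and a highest rank correlation of 0.700 with any other library, against at least 0.945 for each of the others. It was left out, and counts of calls with it are given for most comparisons, beside the results or in the closing section. The deposited names of 5 of the 8 CNS Tconv libraries carry the other genotype's tag than their labels do, so calls of clustered histone and listed genes from CNS Tconv are given with and without these 5. Leaving them out also leaves fewer CNS Tconv libraries in each genotype, with only a single library in a genotype. Whether calls lost in that fit were lost through the labels or through the smaller groups was not tested. As counts scaled to the library total (CPM), Tnfrsf1b averaged 406 CPM in CNS Treg labelled icKO and 610 CPM in those labelled Ctrl, and 619 and 795 CPM in dLN Treg (edgeR adjusted p = 0.558 and 1), while it was higher in the CNS Tconv libraries labelled icKO than in those labelled Ctrl (343 and 208 CPM, adjusted p = 0.0091, and 0.0895 without the 5). Foxp3 had 23.8 to 69.4 CPM in Treg and 0.114 to 1.53 CPM in Tconv libraries. Markers of other cells were high in CNS Treg: the 8 monocyte and macrophage markers summed to 2922 to 4868 CPM there and to 3.96 to 776 CPM in all other groups, the 5 microglia markers to 1486 to 2074 CPM against 83 to 399 CPM, and the 4 neutrophil markers to 73.4 to 877 CPM against 0 to 8.38 CPM. The summed level of 6 CD8 T and NK markers was between 271 and 616 CPM in icKO CNS Treg, between 129 and 168 CPM in Ctrl CNS Treg and between 34.2 and 171 CPM elsewhere. None of these markers was at 0 in all CNS Treg libraries of either genotype, and their part in the differences of CNS Treg below was not tested. The 6 B cell markers summed to 62.6 to 74.8 CPM in dLN Treg and to 15.3 to 24.8 CPM in dLN Tconv, without overlap. In the CNS they summed to 23.0 to 119 CPM in Treg and 6.49 to 30.9 CPM in Tconv. The part of B cell RNA in the differences below was not tested either.

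Clustered histone mRNA was most abundant in dLN Treg. Summed over the 68 genes it came to 480.5, 522.4 and 471.3 CPM in icKO and 552.1, 446.4 and 581.1 CPM in Ctrl dLN Treg, and every other library had less, between 104.0 and 314.8 CPM. CNS Treg had 158.6, 175.3 and 193.8 CPM in icKO and 150.7, 104.0 and 186.8 CPM in Ctrl mice. CNS Tconv had 246.4, 188.5, 314.8 and 163.0 CPM in icKO and 236.8, 227.0, 198.6 and 245.6 CPM in Ctrl mice, and dLN Tconv 186.4 and 235.4 CPM in icKO and 173.6, 232.4 and 259.9 CPM in Ctrl mice, so that CNS and dLN Tconv overlapped in both genotypes. In bulk samples, fewer cells that express a gene and less of its RNA per cell cannot be told apart.

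**Figure D1:**
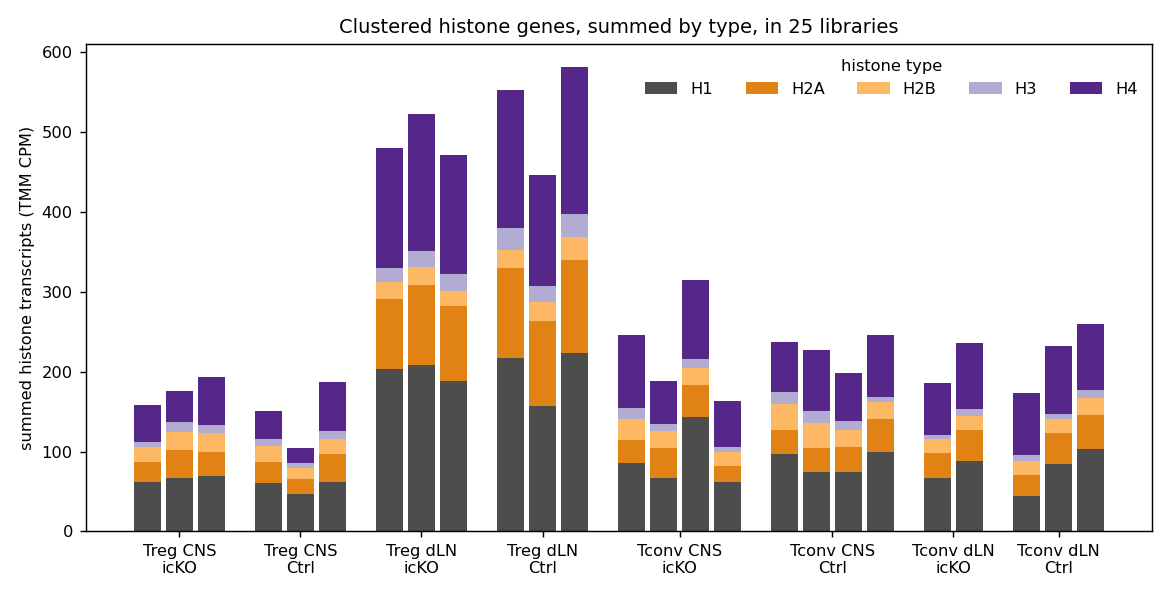
Summed CPM of the clustered histone genes in each of the 25 libraries (bars, by group), stacked by histone type H1, H2A, H2B, H3 and H4. The 6 dLN Treg libraries lie between 446.4 and 581.1 CPM and all others at or below 314.8 CPM.

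A few genes made up most of this signal. Hist1h4d, Hist1h1e, Hist1h1b and Hist1h2ae held 64.9% of the clustered histone counts. Per length, Hist1h4d, an H4 gene, averaged 590 TPM over the 25 libraries and was 45.0% of all clustered histone TPM, followed by the H1 gene Hist1h1e (124 TPM), Hist1h2ae (100 TPM) and the H1 gene Hist1h1b (86.4 TPM). The most abundant H3 gene, Hist1h3i, averaged 25.4 TPM and the H2B gene with the highest mean over all libraries, Hist2h2bb, 12.7 TPM. The order differed by group: among H2B genes Hist1h2bc was highest in CNS Treg, Hist1h2bj in dLN Treg, Hist2h2bb in CNS Tconv and Hist3h2ba in dLN Tconv, and among H2A genes Hist3h2a stood above Hist1h2ae in CNS Treg of both genotypes and in Ctrl CNS Tconv. By type, averaged over the 25 libraries, H4 was 51.7% of the TPM, H1 21.1%, H2A 16.9%, H2B 5.75% and H3 4.54%. H3 stood above H2B in dLN Treg, with group means of 101.0 and 90.9 TPM in icKO and 133.6 and 107.7 TPM in Ctrl mice. In CPM, which is not scaled to length, H1 was the largest type in 7 of the 8 groups. The core types, which the particle holds in equal number, were thus captured at very unequal levels. The longest GENCODE transcripts differ from the deposited lengths. These are 1138 and 368 bases for Hist1h4d, 1930 and 782 for Hist1h1e and 2146 and 508 for Hist3h2a. For others, such as Hist1h1b (743 and 794 bases), the deposited length was not shorter. A TPM thus depends on which transcript was assumed. Counts and CPM may also lack reads from annotated sequence beyond the deposited length, which was not tested. Counts above the filter on low values were found for 46 genes (5 H1, 11 H2A, 12 H2B, 10 H3 and 8 H4), and these were tested. The other 22 had at most 16 counts in any library and a mean of at most 1.87 TPM, and 6 of them were at 0 in all 25 libraries after rounding, 4 of these also as deposited. Coding sequences are alike: of 67 genes with one, 49 share over 50% of their 50-base windows with another clustered histone gene. Hist1h2ae (81.2%) and Hist1h3i (88.3%) are among them, while Hist1h1a, Hist1h1b, Hist2h2bb and Hist2h2be share none and Hist3h2a 12.3%. Since 1690 of 1700 values were whole as deposited, reads were rarely split in fractions between copies. Whether reads that match several copies are missing from the levels was not tested.

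**Figure D2:**
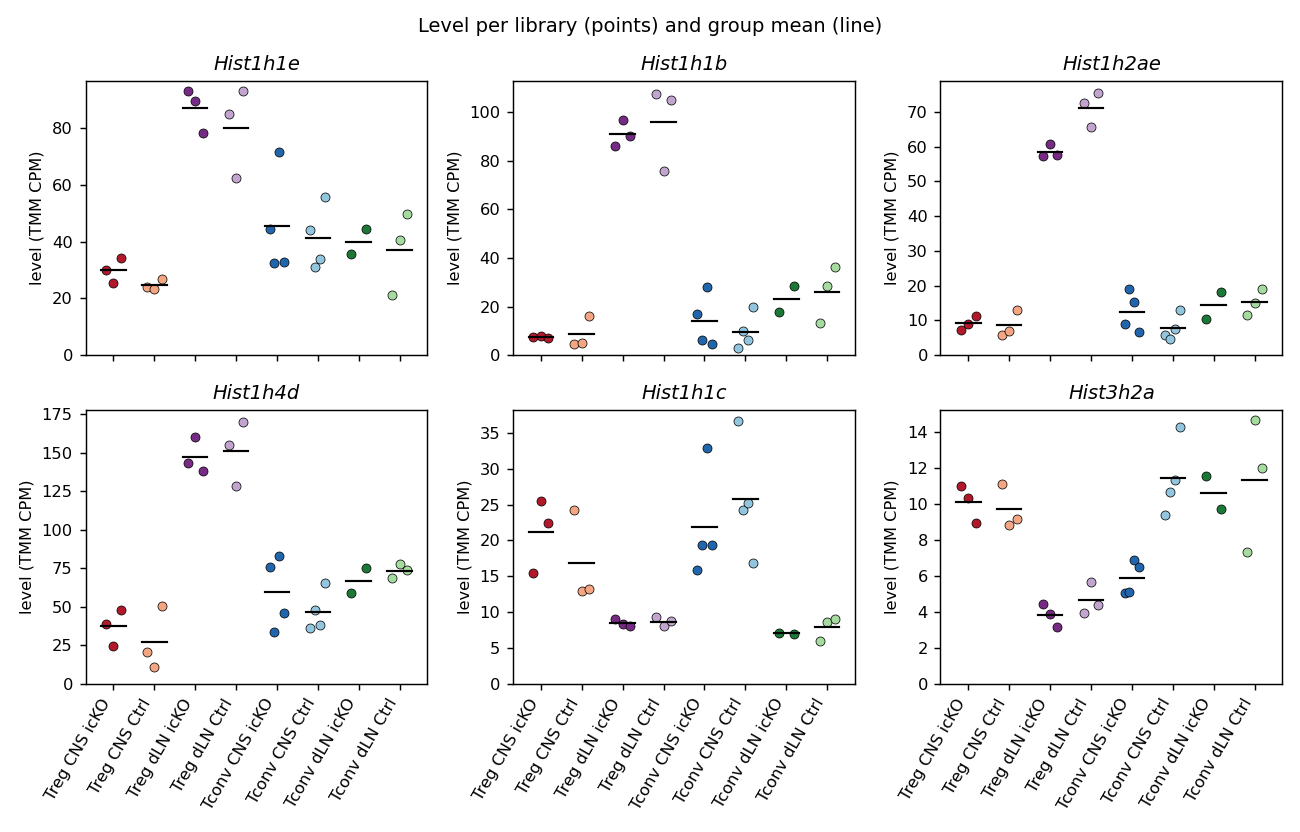
CPM of Hist1h1e, Hist1h1b, Hist1h2ae, Hist1h4d, Hist1h1c and Hist3h2a in each library (points) by group, with the group mean as a line. Hist1h1e, Hist1h1b, Hist1h2ae and Hist1h4d are highest in dLN Treg of both genotypes, whereas Hist1h1c is at 7.99 to 9.23 CPM in dLN Treg and 12.9 to 25.6 CPM in CNS Treg.

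Treg from the CNS held less of most of the abundant clustered histone mRNAs than Treg from dLN, in both genotypes, while Hist1h1c and Hist3h2a were higher in the CNS. In icKO Treg, 6 genes were lower and 2 higher in the CNS (9.41% and 13.1% of all 13500 genes tested), and in Ctrl Treg 10 were lower and 2 higher (8.55% and 13.3% of all genes). All 8 genes called in icKO Treg were called in Ctrl Treg in the same direction. The median log2 fold change of the 46 genes was -0.68 in icKO and -1.10 in Ctrl Treg, beside 0.04 and 0.02 over all genes. With the library that stood apart in the fit, 3 and 4 genes were called, all lower in the CNS, at 5.15% and 5.75% of all genes.

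Among the linker histones, Hist1h1b had 7.51, 7.87 and 6.93 CPM in icKO CNS Treg and 86.2, 96.6 and 90.0 CPM in icKO dLN Treg. In Ctrl mice it had 4.50, 5.10 and 16.1 CPM in CNS Treg and 108, 75.6 and 105 CPM in dLN Treg. Every CNS library was below every dLN library, and the log2 fold change was -3.61 ± 0.66 in icKO (SE; edgeR adjusted p = 0.000498) and -3.48 ± 0.65 in Ctrl Treg (adjusted p = 0.000751). Hist1h1e had 30.1, 25.6 and 34.2 CPM in icKO CNS Treg and 93.0, 89.6 and 78.4 CPM in icKO dLN Treg. Ctrl CNS Treg had 24.1, 23.3 and 26.9 CPM of it and Ctrl dLN Treg 84.9, 62.5 and 93.0 CPM. The groups were again apart, with a log2 fold change of -1.54 ± 0.30 in icKO (adjusted p = 0.000891) and -1.69 ± 0.30 in Ctrl Treg (adjusted p = 0.000473). Hist1h1a was called lower in the CNS in Ctrl Treg (0.375, 0 and 0.687 CPM in the CNS and 3.93, 3.10 and 4.28 CPM in dLN, log2 fold change -3.38 ± 0.81, adjusted p = 0.00493). The calls of Hist1h1b, and no others of these, held when the library that stood apart was added (adjusted p = 0.0255 in icKO and 0.0299 in Ctrl Treg), and that of Hist1h1e did not (0.345 and 0.301).

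Hist1h1c went the other way. It had 15.4, 25.6 and 22.5 CPM in icKO CNS Treg and 9.06, 8.27 and 8.02 CPM in icKO dLN Treg. In Ctrl mice it had 24.2, 12.9 and 13.2 CPM in CNS Treg and 9.23, 7.99 and 8.72 CPM in dLN Treg. The lowest CNS library stood above the highest dLN library in each genotype, with log2 fold changes of 1.32 ± 0.32 (adjusted p = 0.00485) and 0.96 ± 0.32 (adjusted p = 0.0339). In Ctrl Treg the call was lost without CNS Ctrl replicate 1 (adjusted p = 0.227), the library at 24.2 CPM, or without dLN Ctrl replicate 1, 2 or 3 (0.0752, 0.104 and 0.0948). In both genotypes it was lost with all 26 libraries (0.117 and 0.283).

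Among the H2A genes, Hist1h2ae had 7.31, 9.05 and 11.4 CPM in icKO CNS Treg and 57.2, 60.7 and 57.7 CPM in icKO dLN Treg. Ctrl CNS Treg had 5.92, 6.87 and 12.9 CPM of it and Ctrl dLN Treg 72.7, 65.7 and 75.4 CPM, again far apart. Its log2 fold change of -2.66 ± 0.40 in icKO (adjusted p = 8.56e-05) and -3.05 ± 0.41 in Ctrl Treg (adjusted p = 3.19e-05) had the smallest p among the clustered histone genes, and it was called with all 26 libraries too (0.00163 and 0.000719). Hist1h2ab was also lower in the CNS, with a log2 fold change of -2.73 ± 0.76 in icKO (adjusted p = 0.0130) and -3.25 ± 0.78 in Ctrl Treg (adjusted p = 0.00498). The icKO call of Hist1h2ab was lost without CNS icKO replicate 3 (adjusted p = 0.0540). Hist2h2ac had 3.45, 1.01 and 3.37 CPM in Ctrl CNS Treg and 10.2, 10.2 and 9.17 CPM in Ctrl dLN Treg, a log2 fold change of -1.92 ± 0.51 (adjusted p = 0.0104), which was not called without CNS Ctrl replicate 2 (adjusted p = 0.0644).

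Hist3h2a, an H2A gene of the small chromosome 11 cluster, was higher in the CNS. It had 11.0, 10.3 and 8.95 CPM in icKO CNS Treg and 4.42, 3.87 and 3.14 CPM in icKO dLN Treg. In Ctrl mice it had 11.1, 8.82 and 9.19 CPM in CNS Treg and 3.93, 5.68 and 4.36 CPM in dLN Treg. Both pairs of groups were apart, with a log2 fold change of 1.40 ± 0.30 in icKO (adjusted p = 0.00180) and 1.06 ± 0.29 in Ctrl Treg (adjusted p = 0.0128). The Ctrl call was lost without CNS Ctrl replicate 1 or without dLN Ctrl replicate 1 or 3 (adjusted p = 0.0512, 0.0662 and 0.0562), and both were lost with all 26 libraries (0.406 in icKO and 0.597 in Ctrl Treg).

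By edgeR, 0 of the 12 tested H2B genes were called between CNS and dLN Treg in either genotype, beside 22.5% of all genes in icKO and 21.8% in Ctrl Treg. An unadjusted p under 0.05 was found for 0 in icKO and 1 in Ctrl Treg, beside 4837 and 4782 of all 13500 genes. DESeq2 called 0 in both and limma voom 0 in icKO and 2 in Ctrl Treg. The summed level of all 18 H2B genes was 18, 22.8 and 23.0 CPM in icKO CNS Treg and 21.1, 23.1 and 19.4 CPM in icKO dLN Treg, which overlap. In Ctrl mice it was 19.8, 14.1 and 18.1 CPM in CNS Treg and 22.7, 24.4 and 28.1 CPM in dLN Treg. Genes within this sum differed in direction, without overlap of the tissues. Hist1h2bj averaged 1.14 CPM in CNS and 2.27 CPM in dLN Treg of icKO mice, and 1.27 and 3.16 CPM in Ctrl mice. Hist1h2be averaged 1.94 and 0.858 CPM in icKO mice, and 0.928 and 0.427 CPM in Ctrl mice. As a ratio of group means, CNS over dLN, the H2B sum was 1.004 in icKO and 0.691 in Ctrl Treg, whereas the H1 sum was 0.330 and 0.283, the H2A sum 0.323 and 0.243, the H3 sum 0.499 and 0.312 and the H4 sum 0.309 and 0.233. H2B made up 12.1% of clustered histone CPM in icKO CNS Treg and 4.31% in icKO dLN Treg, and 11.8% and 4.76% in Ctrl mice.

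Of the H3 and H4 genes, Hist1h4d had 38.8, 24.6 and 48.0 CPM in icKO CNS Treg and 143, 160.3 and 138 CPM in icKO dLN Treg. Ctrl CNS Treg had 20.5, 10.6 and 50.6 CPM of it and Ctrl dLN Treg 155, 129 and 170.0 CPM. The groups did not overlap, and the log2 fold change was -1.99 ± 0.40 in icKO (adjusted p = 0.00116) and -2.47 ± 0.40 in Ctrl Treg (adjusted p = 0.000240), called with all 26 libraries as well (0.00819 and 0.00245). Hist1h3i had a log2 fold change of -1.57 ± 0.55 in icKO (adjusted p = 0.0445) and -2.60 ± 0.58 in Ctrl Treg (adjusted p = 0.00281). Its icKO call was lost when any 1 of the 6 libraries was left out (adjusted p = 0.0723 to 0.111), and with all 26 libraries the call stood in Ctrl Treg (0.0205) but not in icKO Treg (0.146). Hist1h4c, a second H4 gene, had 2.01, 3.55 and 2.79 CPM in icKO CNS Treg and 0.899, 2.95 and 3.14 CPM in icKO dLN Treg, which overlap, and was not called in either genotype. Hist1h3b and Hist1h4i were the remaining genes called lower in Ctrl Treg (adjusted p = 0.0365 and 0.0368), and both calls ended without CNS Ctrl replicate 1 or 2 or dLN Ctrl replicate 1, and that of Hist1h4i also without dLN Ctrl replicate 3.

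**Figure D3:**
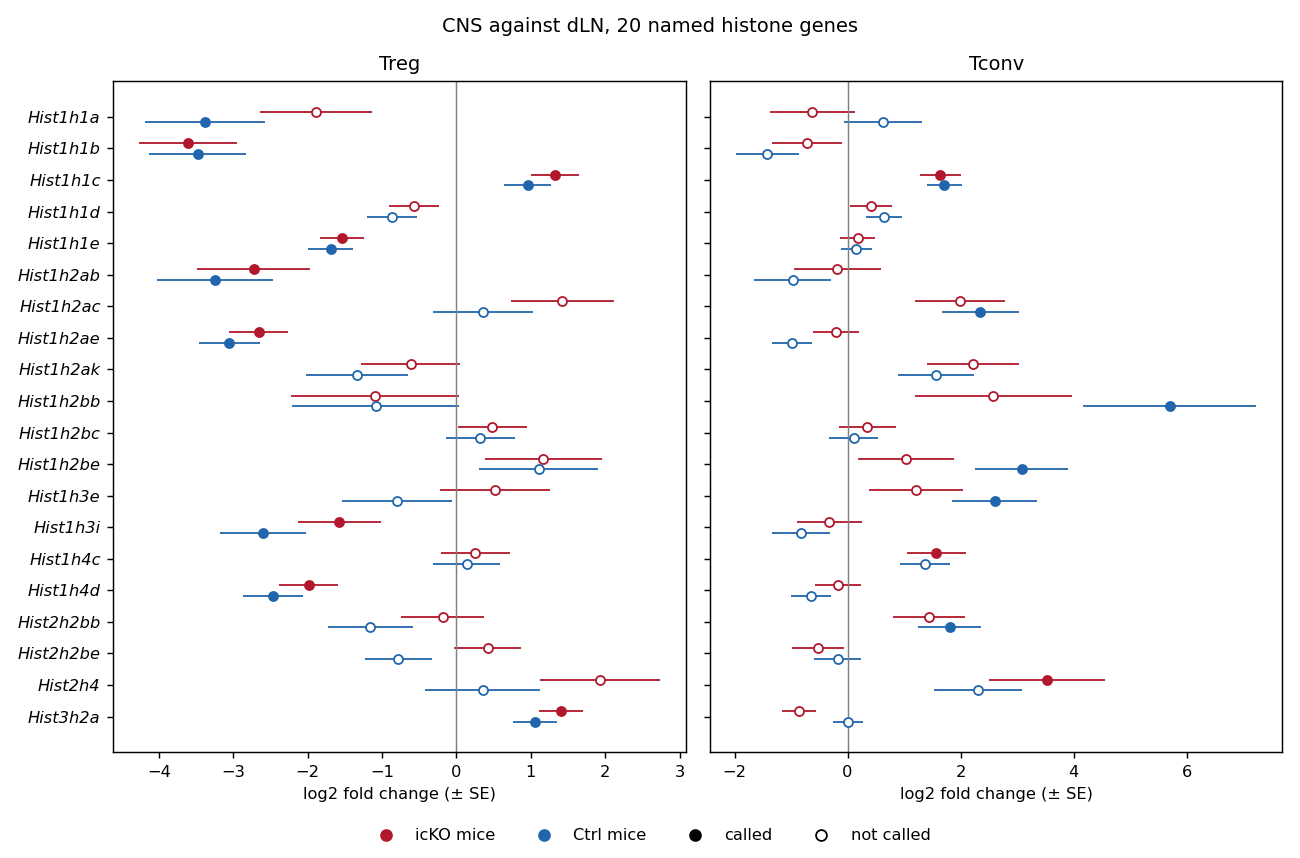
Log2 fold change, CNS over dLN, of the 20 named histone genes in Treg and Tconv, with icKO (red) above Ctrl (blue) and bars of 1 SE; filled points passed an edgeR adjusted p of 0.05. In Treg, Hist1h1b lies at -3.61 and -3.48 and Hist1h1c at 1.32 and 0.96, and in Tconv every filled point is above 0.

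Between CNS and dLN Tconv fewer genes were called than in Treg, and Hist1h1c was higher in the CNS in both cell types. In icKO Tconv, 3 genes were higher and 0 lower in the CNS (7.81% and 6.3% of all genes, 14.1% in all), and in Ctrl Tconv 6 were higher and 0 lower (5.97% and 2.93%, 8.9% in all). DESeq2 called 6 and 8 of the 46 genes and limma voom 6 and 7, and the shares of all genes that these tools called are not given. An unadjusted edgeR p under 0.05 was found for 9 and 15 of the 46, beside 3619 and 3390 of all 13500 genes. Some genes that were not called lay lower in the CNS. Hist1h4d had 36.4, 47.8, 38.1 and 65.0 CPM in Ctrl CNS Tconv and 68.4, 77.5 and 74.0 CPM in Ctrl dLN Tconv, without overlap (log2 fold change -0.65 ± 0.36, adjusted p = 0.266), and the ratio of the H4 sums, CNS over dLN, was 0.841. Hist3h2a had 5.03, 5.10, 6.89 and 6.49 CPM in icKO CNS Tconv and 11.5 and 9.72 CPM in icKO dLN Tconv (-0.86 ± 0.30, adjusted p = 0.0604). Hist1h1c, the gene called in both genotypes, had 15.9, 19.3, 32.9 and 19.3 CPM in icKO CNS Tconv and 7.03 and 6.97 CPM in icKO dLN Tconv, and 36.7, 24.3, 25.3 and 16.8 CPM in Ctrl CNS Tconv and 5.91, 8.65 and 9.08 CPM in Ctrl dLN Tconv. The tissues did not overlap, and the log2 fold change was 1.64 ± 0.36 in icKO (adjusted p = 0.00328) and 1.71 ± 0.31 in Ctrl Tconv (adjusted p = 0.00145). The icKO call was lost without dLN icKO replicate 1 or 2 (adjusted p = 0.0652 and 0.0538), which leaves a single dLN icKO library that is assumed to vary like the other groups. Without the 5 CNS Tconv libraries the Ctrl call of Hist1h1c stood (adjusted p = 0.000810) and the icKO call did not (0.148), while with all 26 libraries it was the reverse (0.0712 in Ctrl and 0.00725 in icKO Tconv).

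The other calls in icKO Tconv were the H4 genes Hist2h4 (2.17, 1.92, 1.22 and 1.84 CPM in the CNS and 0.0717 and 0.223 CPM in dLN, log2 fold change 3.53 ± 1.02, adjusted p = 0.0225) and Hist1h4c (6.91, 11.2, 6.76 and 4.30 CPM in the CNS and 1.79 and 3.12 CPM in dLN, 1.57 ± 0.52, adjusted p = 0.0477). Both sets of CNS values lay above those of dLN, but neither call stood without dLN icKO replicate 1 (adjusted p = 0.256 and 0.403) or 2 (0.0839 and 0.112), or without the 5 CNS Tconv libraries (0.122 and 0.292). That of Hist1h4c also ended without CNS icKO replicate 1, 2 or 3 (0.0643, 0.123 and 0.0673). The other calls in Ctrl Tconv were the H2A gene Hist1h2ac, the H2B genes Hist1h2bb, Hist1h2be and Hist2h2bb, and the H3 gene Hist1h3e. Hist1h2be had 4.28, 3.40, 2.99 and 0.303 CPM in Ctrl CNS Tconv and 0.450, 0.343 and 0.150 CPM in Ctrl dLN Tconv, overlapping through CNS Ctrl replicate 4, with a log2 fold change of 3.08 ± 0.82 (adjusted p = 0.0219). Hist1h2bb had 0, 0.780, 0.874 and 0.0757 CPM in Ctrl CNS Tconv and was at 0 in all 3 Ctrl dLN Tconv libraries, so the groups overlap at 0 (adjusted p = 0.0247). The calls of Hist1h2ac, Hist1h3e and Hist2h2bb (adjusted p = 0.0354, 0.0354 and 0.0435) ended without CNS Ctrl replicate 1 or 2 or any of the 3 dLN Ctrl libraries, and leaving out any 1 dLN Ctrl library left 1 called gene, Hist1h1c. The call of Hist1h2be also ended without CNS Ctrl replicate 1 (0.0553) and that of Hist1h2bb without CNS Ctrl replicate 2 or 3 (0.0584 and 0.0524). Without the 5 CNS Tconv libraries all of these Ctrl calls stood but that of Hist1h2ac (0.0507). No gene was called in Ctrl Tconv with all 26 libraries, where 1.1% of all genes were called.

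The difference between CNS and dLN differed between Ctrl Treg and Ctrl Tconv for 5 genes (3.67% of all genes, 2.55% more positive and 1.12% more negative in Treg), all more negative in Treg. For Hist1h1e the log2 fold change, CNS over dLN, in Ctrl Treg minus that in Ctrl Tconv was -1.85 ± 0.41 (interaction, edgeR adjusted p = 0.0120), and it was called in all 13 fits that left out 1 library. For Hist1h2ae the difference was -2.08 ± 0.53 (adjusted p = 0.0312), for Hist1h1a -4.01 ± 1.06 (adjusted p = 0.0364), for Hist2h2bb -2.96 ± 0.79 (adjusted p = 0.0380) and for Hist1h2bb -6.79 ± 1.87 (adjusted p = 0.0472), the last a fitted value against a group at 0 and no bound. Hist1h1e had 44.2, 31.2, 34.0 and 55.7 CPM in Ctrl CNS Tconv and 21.1, 40.6 and 49.7 CPM in Ctrl dLN Tconv, which overlap, unlike in Treg. No clustered histone gene was called in this interaction with all 26 libraries (0.0919% of all genes), where the edgeR adjusted p of Hist1h1e was 0.858.

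Within dLN, Treg held more clustered histone mRNA than Tconv. In icKO dLN, 2 genes were higher and 1 lower in Treg (5.44% and 4.47% of all genes, 9.91% in all), and in Ctrl dLN 10 were higher and 1 lower (6.04% and 5.48%, 11.5% in all). All 3 icKO calls, of Hist1h2ae, Hist1h1e and Hist3h2a, were among those of Ctrl dLN. Other tools called more in icKO dLN, with 9 genes by DESeq2 and 18 by limma voom against 3 by edgeR. The shares of all genes that these 2 tools called are not given, so whether this is particular to histone genes was not tested. An unadjusted edgeR p under 0.05 was found for 16 of the 46 genes, beside 3046 of all 13500 genes. With the library that stood apart, 235 genes of all (1.8%) and 2 of the clustered histone genes were called in Ctrl dLN. In icKO dLN, the comparison that holds this library, 515 genes of all (3.95%) were called with it, and the count of clustered histone genes is not given.

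Hist1h2ae had 57.2, 60.7 and 57.7 CPM in icKO dLN Treg and 10.5 and 18.3 CPM in icKO dLN Tconv, and 72.7, 65.7 and 75.4 CPM in Ctrl dLN Treg and 11.6, 15.1 and 19.0 CPM in Ctrl dLN Tconv. Treg stood above Tconv in both genotypes, by a log2 fold change of 2.02 ± 0.45 in icKO (adjusted p = 0.00535) and 2.23 ± 0.39 in Ctrl dLN (adjusted p = 0.000543). The icKO call was lost without dLN Tconv icKO replicate 1 (adjusted p = 0.146). Hist1h1e had 93.0, 89.6 and 78.4 CPM in icKO dLN Treg and 35.6 and 44.5 CPM in icKO dLN Tconv, and 84.9, 62.5 and 93.0 CPM in Ctrl dLN Treg and 21.1, 40.6 and 49.7 CPM in Ctrl dLN Tconv. The cell types did not overlap, and the log2 fold change was 1.12 ± 0.34 in icKO (adjusted p = 0.0373) and 1.11 ± 0.30 in Ctrl dLN (adjusted p = 0.0158). Its icKO call ended without Treg icKO replicate 1 or 2 or either Tconv icKO library (adjusted p = 0.0756 to 0.299), and its Ctrl call without Treg Ctrl replicate 1 or 3 or Tconv Ctrl replicate 1 (0.0522, 0.0675 and 0.0886).

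The remaining genes higher in Ctrl dLN Treg were the H1 genes Hist1h1d (1.19 ± 0.34, adjusted p = 0.0257) and Hist1h1b (1.89 ± 0.61, adjusted p = 0.0450), the H2A genes Hist1h2ab (adjusted p = 0.0404) and Hist1h2ak (2.53 ± 0.72, adjusted p = 0.0237), the H2B genes Hist1h2bb and Hist1h2bj, and the H3 genes Hist1h3a and Hist1h3i. Hist1h2bb averaged 0.892 CPM in Ctrl dLN Treg and was at 0 in all 3 Ctrl dLN Tconv libraries, at least 4.29-fold higher against a floor of 3 counts per library (adjusted p = 0.00802). Leaving out any 1 of the 6 libraries lowered the count from 11 to between 3 and 6 genes, and Hist1h2ae and Hist1h2bb were called in every such fit. Hist3h2a was the gene lower in Treg: it had 4.42, 3.87 and 3.14 CPM in icKO dLN Treg and 11.5 and 9.72 CPM in icKO dLN Tconv, and 3.93, 5.68 and 4.36 CPM in Ctrl dLN Treg and 7.32, 14.7 and 12 CPM in Ctrl dLN Tconv. Every Treg library was below every Tconv library of its genotype, with a log2 fold change of -1.48 ± 0.32 in icKO (adjusted p = 0.00412) and -1.28 ± 0.29 in Ctrl dLN (adjusted p = 0.00562). These calls were lost without Tconv icKO replicate 1 (adjusted p = 0.0932) and without Tconv Ctrl replicate 2 (0.0505), and both with all 26 libraries (0.622 and 0.652).

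**Figure D4:**
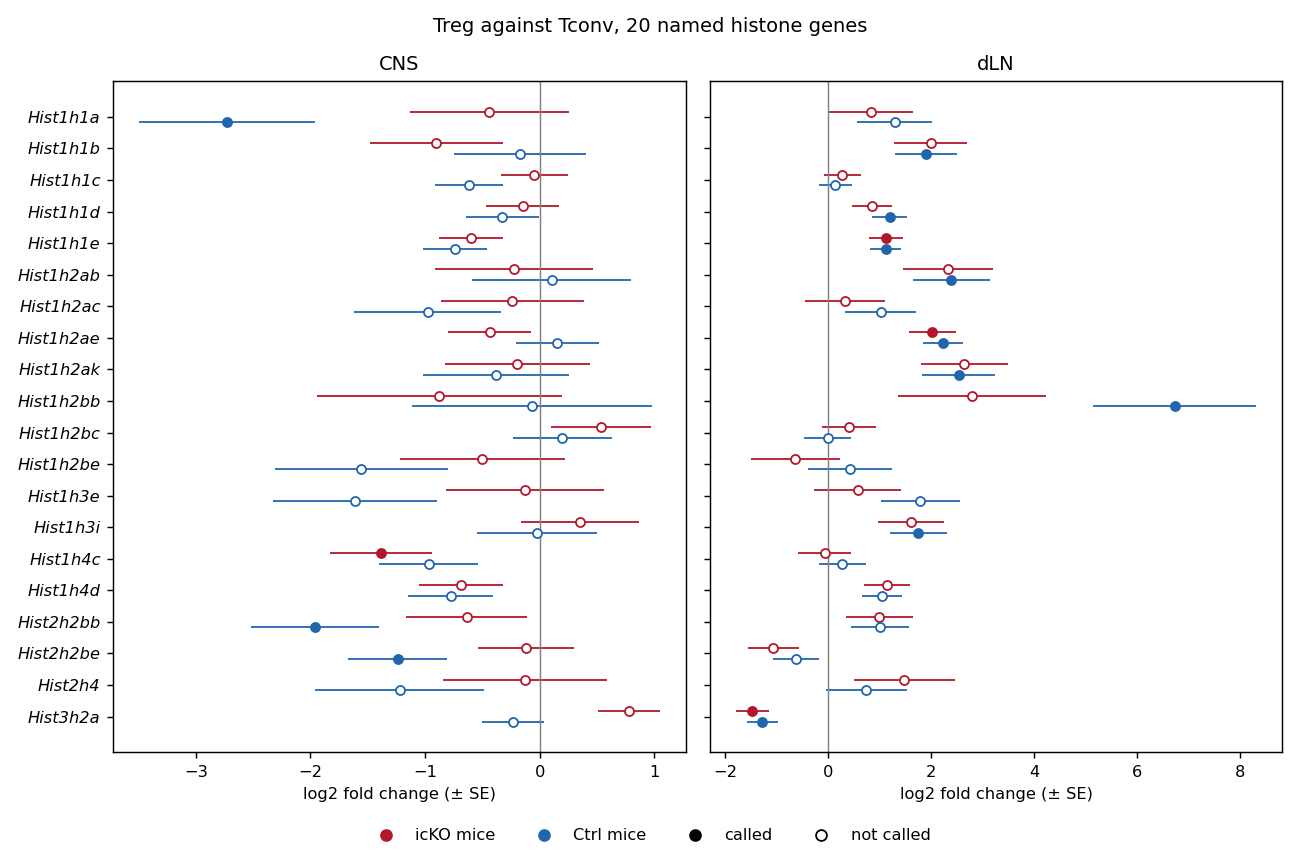
Log2 fold change, Treg over Tconv, of the 20 named histone genes in CNS and dLN, with icKO (red) above Ctrl (blue) and bars of 1 SE; filled points passed an edgeR adjusted p of 0.05. In dLN most points lie above 0 and Hist3h2a lies at -1.48 and -1.28, and in the CNS every filled point is below 0.

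Within the CNS, few clustered histone genes were called between the cell types, all lower in Treg. The sum over all types averaged 147.2 CPM in Ctrl CNS Treg and 227.0 CPM in Ctrl CNS Tconv, without overlap (ratio 0.648). The H1 and H2B sums did not overlap there either (0.652 each), while in icKO mice all sums overlapped. An unadjusted edgeR p under 0.05 was found for 3 genes in icKO and 9 in Ctrl mice, beside 3516 and 4273 of all 13500 genes. In icKO mice 1 gene was called (of all genes, 4.2% were lower and 8.38% higher in Treg, 12.6% in all). In Ctrl mice 3 were called (7.03% lower and 10.8% higher, 17.9% in all). In icKO CNS, Hist1h4c had 2.01, 3.55 and 2.79 CPM in Treg and 6.91, 11.2, 6.76 and 4.30 CPM in Tconv, without overlap (log2 fold change -1.39 ± 0.44, adjusted p = 0.0427). This call was lost in 6 of the 7 fits that left out 1 library (adjusted p = 0.0531 to 0.129), the exception being the fit without Tconv icKO replicate 4, and without the 5 CNS Tconv libraries (0.289). In Ctrl CNS, Hist1h1a had 0.375, 0 and 0.687 CPM in Treg and 4.87, 1.67, 1.82 and 1.21 CPM in Tconv, all above the Treg values (-2.73 ± 0.77, adjusted p = 0.0162), and without Tconv Ctrl replicate 1 the adjusted p was 0.0525. Hist2h2bb had 1.80, 0.630 and 1.37 CPM in Treg and 9.14, 5.91, 2.70 and 2.04 CPM in Tconv (-1.96 ± 0.56, adjusted p = 0.0168). Its call ended without Treg Ctrl replicate 2 or Tconv Ctrl replicate 1 (adjusted p = 0.0900 and 0.0627). Hist2h2be, an H2B gene, had an adjusted p of 0.0498 (-1.24 ± 0.43), and leaving out any 1 of the 7 libraries ended that call (0.0509 to 0.149). Without the 5 CNS Tconv libraries Hist1h1a and Hist2h2bb were still called in Ctrl CNS (0.0195 and 0.00680). With all 26 libraries no clustered histone gene was called in either genotype, where 3.42% of all genes were called in icKO and 6.08% in Ctrl CNS.

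Few clustered histone genes were called between icKO and Ctrl mice. By edgeR, 0 of the 46 tested genes were called between icKO and Ctrl in CNS Treg (0% of all 13500 genes), dLN Treg (0%) and dLN Tconv (0%), and 1, lower in icKO, in CNS Tconv (3.1% of all genes, 1.58% higher and 1.53% lower). DESeq2 and limma voom called 0 in these first 3 comparisons, where 0, 1 and 3 genes had an unadjusted edgeR p under 0.05. In CNS Treg the log2 fold change, icKO over Ctrl, was 0.27 ± 0.30 for Hist1h1e, 0.11 ± 0.39 for Hist1h2ae, 0.44 ± 0.39 for Hist1h4d, -0.21 ± 0.62 for Hist1h1b, 0.33 ± 0.31 for Hist1h1c and 0.06 ± 0.29 for Hist3h2a, and none was called. In dLN Treg, Hist1h2ae had 57.2, 60.7 and 57.7 CPM in icKO and 72.7, 65.7 and 75.4 CPM in Ctrl mice. All 3 icKO values were below the Ctrl values, but the log2 fold change of -0.28 ± 0.37 was within its SE and was not called. The summed H2A level was 87.9, 100.5 and 94.0 CPM in icKO and 113, 106 and 116 CPM in Ctrl dLN Treg, again lower in each icKO library, with a ratio of means of 0.841. The log2 fold change in dLN Treg was -0.04 ± 0.38 for Hist1h4d, 0.12 ± 0.29 for Hist1h1e and -0.08 ± 0.58 for Hist1h1b. Hist1h4c was below Ctrl in all icKO Treg libraries of both tissues without being called. It had 2.01, 3.55 and 2.79 CPM in icKO and 7.05, 4.29 and 4.37 CPM in Ctrl CNS Treg (-0.91 ± 0.46, adjusted p = 0.745), and 0.899, 2.95 and 3.14 CPM in icKO and 5.11, 3.83 and 5.35 CPM in Ctrl dLN Treg (-1.03 ± 0.46, adjusted p = 1). With SEs of 0.29 to 0.62 on the log2 scale, small differences were not detectable with 3 libraries a group.

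The gene called in CNS Tconv was Hist3h2a, which had 5.03, 5.10, 6.89 and 6.49 CPM in the libraries labelled icKO and 9.37, 10.6, 11.4 and 14.3 CPM in those labelled Ctrl. The groups did not overlap (log2 fold change -0.96 ± 0.25, edgeR adjusted p = 0.0416; DESeq2 called it and limma voom did not, 0.0651). The call was lost in 7 of the 8 fits that left out 1 library (adjusted p = 0.0577 to 0.114), all but the one without Ctrl replicate 1, without the 5 CNS Tconv libraries (0.323), and with all 26 libraries (0.991, where 0.0919% of all genes were called). No clustered histone gene was called in either interaction with genotype (icKO over Ctrl in CNS Treg against CNS Tconv, 0.178% of all genes, 0.111% more positive and 0.0667% more negative in Treg, or in CNS Tconv against dLN Tconv, 0%). DESeq2 and limma voom also called 0 there, and 2 genes in each had an unadjusted edgeR p under 0.05.

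Lists of other genes of histone supply and cell division were set beside these results. Of all genes, 9.41% were lower and 13.1% higher in icKO CNS Treg than in icKO dLN Treg, and 8.55% and 13.3% in Ctrl mice. Between CNS and dLN in icKO Treg, 22 of 24 S phase replication genes and 20 of 20 G2 and mitosis genes were lower in the CNS and 0 were higher, and in Ctrl Treg 21 and 15 were lower and 0 higher. On the log2 scale Mcm3, a subunit of the replicative helicase, fell by 1.71 ± 0.18 in icKO (edgeR adjusted p = 1.64e-06) and by 0.99 ± 0.17 in Ctrl CNS Treg (0.000401). Mki67, a proliferation marker, fell by 2.90 ± 0.44 (8.44e-05) and by 2.47 ± 0.43 (0.000385). Of 20 histone chaperones, 12 were lower and 1 higher in icKO and 15 lower and 1 higher in Ctrl CNS Treg. Rbbp7, which binds histone H4, fell by 1.18 ± 0.13 (3.91e-06) and by 0.84 ± 0.13 (0.000130). Of 19 genes of histone mRNA transcription and 3′ end processing, 8 were lower and 1 higher in icKO and 5 lower and 0 higher in Ctrl CNS Treg, led by the cyclin Ccne2 (-2.36 ± 0.43, 0.000484, and -1.89 ± 0.42, 0.00281).

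The replication-independent variants, which are made outside S phase as well and from polyadenylated mRNA, were called in both directions. Of 11, 2 were higher and 2 lower in icKO and 1 higher and 2 lower in Ctrl CNS Treg relative to dLN Treg. Of all genes, 13.1% were higher and 9.41% lower in icKO, and 13.3% and 8.55% in Ctrl CNS Treg, so these small counts are no result about the variants as a list. H3f3b, a gene of H3.3, was higher (0.60 ± 0.15, adjusted p = 0.00566, and 0.53 ± 0.15, 0.0131), and H2afx and H2afv, genes of H2A variants, were lower. Between Treg and Tconv in dLN, 21 S phase and 16 G2 and mitosis genes were higher in Treg in icKO and 20 and 16 in Ctrl mice, and 0 were lower. Of all genes, 5.44% were higher and 4.47% lower in icKO dLN Treg, and 6.04% and 5.48% in Ctrl dLN Treg. Slbp was higher by 0.92 ± 0.18 in icKO (adjusted p = 0.00193) and by 0.73 ± 0.16 in Ctrl dLN Treg (0.00387), and H2afz, the gene of the variant H2A.Z, by 1.37 ± 0.20 (0.000132) and 1.17 ± 0.18 (0.000112). Of the variants, 5 of 11 were higher in Treg in each genotype, with 0 and 1 lower.

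Between CNS and dLN Tconv, 7.81% of all genes were higher and 6.3% lower in the CNS of icKO mice, and 5.97% and 2.93% in Ctrl mice. In Tconv, CNS over dLN, 4 S phase genes and 0 G2 and mitosis genes were higher in icKO and 0 of either in Ctrl mice, and 0 were lower. Without the 5 CNS Tconv libraries these counts were 0 and 0 in icKO and 1 and 0 in Ctrl mice. Slbp was higher in icKO CNS Tconv (0.76 ± 0.17, adjusted p = 0.00443), as was H1f0, a linker histone gene outside the clusters known from resting and differentiated cells (1.30 ± 0.22, 0.000365). Without the 5 libraries H1f0 was called (0.00221) and Slbp was not (0.102). Between Treg and Tconv in the CNS, 8 S phase genes were lower in Treg in icKO mice and 1 was higher in Ctrl mice, while of the 20 G2 and mitosis genes 0 were called in icKO and 2 were higher in Ctrl Treg. Of all genes, 4.2% were lower and 8.38% higher in icKO CNS Treg, and 7.03% and 10.8% in Ctrl CNS Treg. Without the 5 libraries 1 S phase gene was lower in icKO and 1 higher in Ctrl Treg, and 1 G2 and mitosis gene was higher in Ctrl Treg. Between the CNS Tconv libraries labelled icKO and Ctrl, Mcm2 (0.50 ± 0.12, adjusted p = 0.0239), Rfc3 (0.83 ± 0.23, 0.0471), and the chaperone subunits Chaf1a (1.22 ± 0.33, 0.0449) and Chaf1b (0.95 ± 0.26, 0.0486) were higher in icKO, with 0 of the S phase genes and chaperones lower. Of all genes, 1.58% were higher and 1.53% lower in icKO in this comparison. None of the calls of Mcm2, Rfc3, Chaf1a and Chaf1b stood without the 5 libraries, a fit in which a genotype keeps a single CNS Tconv library.

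**Figure D5:**
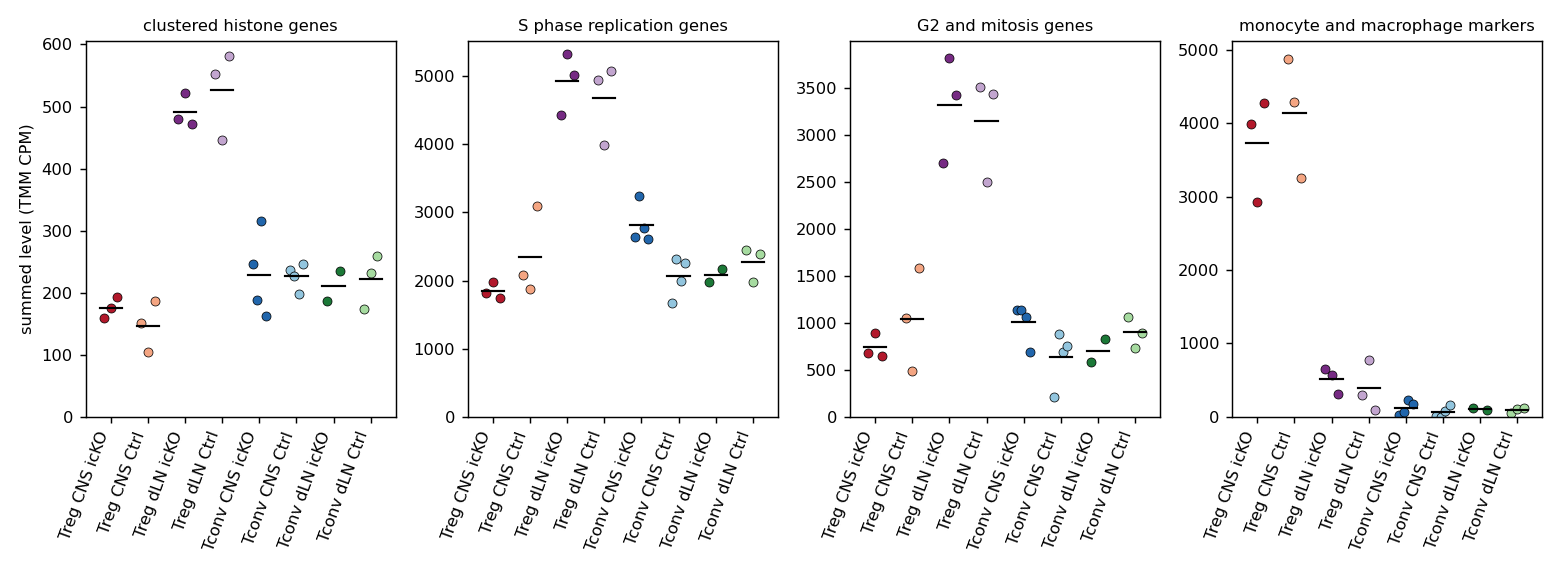
Summed CPM in each library (points) by group for the clustered histone genes, the S phase genes, the G2 and mitosis genes and the monocyte and macrophage markers. The first 3 are highest in dLN Treg, where the S phase sum is 3991 to 5325 CPM against 1673 to 3245 CPM elsewhere, and the markers are highest in CNS Treg at 2922 to 4868 CPM.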

How the data were processed

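RNA of sorted T cells was measured by bulk RNA-seq in 26 libraries, prepared from polyadenylated RNA with SMART-Seq v4 and Nextera per the labels' protocols, a kit that keeps no strand. The authors used FastQC, Trimmomatic, STAR 2.5.3a and RSEM 1.2.28 on mm10, per the submitters' processing notes, and deposited RSEM expected counts (estimated counts) and TPM per gene. Expected counts were rounded (1690 of 1700 values of clustered histone genes in the 25 libraries were whole as deposited). The deposited TPM served only for levels between genes, and FPKM was not used.

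edgeR 4.0.16 in R 4.3.3 tested 13500 genes passing filterByExpr in 1 quasi-likelihood model of 8 group means over 25 libraries, with TMM factors and Benjamini-Hochberg adjustment over all genes; called means adjusted p under 0.05. CPM use TMM-scaled totals. There were 12 comparisons of groups and 3 interactions. Alternatives used DESeq2 1.42.0 and limma 3.58.1 (voom). Sequence searches and figures used Python 3.11.15. The model was tested on simulated data. p-values measure the spread between the libraries of a group, which the labels call mouse replicates without saying whether groups share mice. Counting error is small for abundant genes and large for those under about 1 CPM.

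The members and lists were chosen with earlier results of these data known. Named genes are, per comparison, up to 5 called higher and 5 called lower with the smallest p, the 2 of each type with the highest mean TPM, up to 3 called genes of each other list, Foxp3 and Tnfrsf1b; Hist1h2aa, Hist1h2ah, Hist1h2al, Hist1h2ba, Hist1h2bg, Hist1h2bj, Hist1h2bk, Hist1h3a, Hist1h3b, Hist1h4i, Hist2h2ac and Hist3h2ba were added after their values were seen where they fall outside the rule.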

Additional observations from a re-analysis of the deposited data

Results flagged for a closer look

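In groups of 4 libraries, 2 of 52 sets of values had 1 library far from the other 3, where chance gives about 1 in 20. In Ctrl CNS Tconv, the summed H2A level of 1 library was 40.6 CPM, and Hist1h1a reached 4.87 CPM in replicate 1, with the other 3 at 1.21 to 1.82 CPM. That replicate is the one whose removal ended the call of Hist1h1a between Treg and Tconv in the Ctrl CNS (adjusted p = 0.0525).

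The difference between CNS and dLN differed between Ctrl Treg and Ctrl Tconv, by an interaction term in edgeR, for Hist1h1a (-4.01), Hist1h1e (-1.85), Hist1h2ae (-2.08), Hist1h2bb (-6.79, fitted against a group at 0) and Hist2h2bb (-2.96), all on the log2 scale. Hist1h1e was the one of these called in each of the 13 fits that left out 1 library. Hist1h2ae was called in 7, Hist1h1a and Hist2h2bb in 5 each and Hist1h2bb in 2. Without the 5 CNS Tconv libraries whose deposited names carry the other genotype's tag, Hist1h1e, Hist1h2ae, Hist1h1a and Hist2h2bb were called (adjusted p = 0.00856, 0.0452, 0.0283 and 0.0127) and Hist1h2bb was not (0.0698).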

How the results depend on the processing

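Counts of called clustered histone genes changed with the settings as follows, and the cause was not tested. With all 26 libraries they were 3 between CNS and dLN in icKO Treg (8 as reported), 4 in Ctrl Treg (12), 6 in icKO Tconv (3) and 0 in Ctrl Tconv (6), 0 between Treg and Tconv in the icKO (1) and Ctrl CNS (3), 2 in the Ctrl dLN (11), 0 between icKO and Ctrl in CNS Tconv (1) and 0 in the interaction of tissue and cell type (5), while the common dispersion was 0.364, against 0.142 with 25 libraries. Of all genes, 5.15% and 5.75% were called with 26 libraries between tissues in icKO and Ctrl Treg, and 9.24% and 1.1% in Tconv. Between cell types 3.42% and 6.08% were called in the icKO and Ctrl CNS and 1.8% in the Ctrl dLN. CNS Tconv between genotypes and the interaction each had 0.0919%. Shares of all genes under the settings that follow are not given. DESeq2 called 14 in icKO Treg and 6 in icKO Tconv between tissues, 2 in the icKO CNS and 9 in the icKO dLN between cell types, and 11 in the interaction. limma voom called 6 in icKO Tconv between tissues, 0 in the icKO CNS, 1 in the Ctrl CNS, 18 in the icKO dLN and 27 in the Ctrl dLN between cell types, and 0 in CNS Tconv between genotypes. With only the compared groups in the fit there were 7 in Ctrl Treg and 1 in Ctrl Tconv between tissues, 0 in both CNS comparisons and 12 in the icKO dLN between cell types, 0 in CNS Tconv between genotypes and 1 in the interaction. Without a filter on low counts there were 3 in Ctrl Tconv between tissues, 0 in the icKO CNS, 0 in CNS Tconv between genotypes and 3 in the interaction, and with at least 1 CPM in 6 libraries 2 in the icKO CNS. Without the 5 CNS Tconv libraries named otherwise there were 0 in CNS Tconv between genotypes, 0 in icKO Tconv between tissues and 0 in the icKO CNS.

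Replicate numbers were not taken as pairs, since the labels do not say whether same-numbered libraries share a mouse. Correlations of their deviations from group means were -0.145 to 0.113, and in no comparison did every pair exceed 0.1. With so few libraries a group, these values cannot show whether mice were shared. With the replicate block, 0 genes were called in CNS Tconv between genotypes and 6 in the Ctrl dLN between cell types, and the other counts stayed within 1.5 times. Leaving out 1 library at a time, counts ranged from 6 to 9 in icKO Treg, 8 to 13 in Ctrl Treg, 0 to 3 in icKO Tconv and 1 to 10 in Ctrl Tconv between tissues, from 0 to 1 in the icKO CNS, 0 to 3 in the Ctrl CNS, 0 to 3 in the icKO dLN and 3 to 6 in the Ctrl dLN between cell types, from 0 to 1 in CNS Tconv between genotypes and from 1 to 7 in the interaction, and were 0 in the other 5. Of 36 named values, 0 changed direction under any alternative, 235 of 297 kept their call, as did 146 of 224 when 1 library was left out, and 14 were called in every such fit.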
